A study of Mus musculus with 16 samples.

Results

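The loci described here belong to 6 genes through which myeloid cells sense microbes and adhere: Tlr4, Tlr2, Cd14, Clec7a, Itgam and Itgax. Their members are the H3K4me1 summits of 2 deposited lists that fall in 5 fixed windows of the mm9 mouse genome, Itgam and Itgax sharing a window. The tally came to 104 of the 79796 summits of dendritic cells and 49 of the 81860 summits of 3T3 cells. The dendritic cells were unstimulated and had been grown from bone-marrow progenitors in SCF, IL-3 and IL-6, infected with the retroviral vector pSir-delta U6CHisD carrying a hairpin against JmjD2d (a histone demethylase), selected with histidinol, and differentiated in GM-CSF, with SCF for 4 days and without it for 4 more. The 3T3 cells, an established mouse fibroblast line, were unstimulated, kept under standard culture, with no hairpin named in their labels. The strain of the progenitors is not given in the labels. Each cell type is 1 library, so differences of cell type, of the hairpin and of the library cannot be told apart, and no p-value is given. Of the 16 samples of the series, which also cover acetylated histones, input DNA and cells stimulated for 2 h, the other 14 were not analysed here. The 3T3 sample carries dendritic cells in its cell type field, whereas its title, description, growth protocol and list header say 3T3, and it was read as 3T3.

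H3K4me1 is the monomethylated form of lysine 4 on histone H3, a mark of enhancers, both active and poised, and of the flanks of active promoters. Tlr4 and Tlr2 encode Toll-like receptors of the cell surface, which signal through MyD88 to NF-kB; Tlr4 recognises bacterial lipopolysaccharide, and Tlr2, paired with Tlr1 or Tlr6, recognises lipoproteins. CD14 hands lipopolysaccharide to the TLR4 complex, and Clec7a encodes Dectin-1, the C-type lectin that binds fungal beta-glucan and signals through Syk. Itgam (CD11b) and Itgax (CD11c) encode alpha chains that pair with the beta-2 integrin, bind complement fragments and adhesion ligands, and serve as markers of myeloid and dendritic cells. Genes of this kind are opened during myeloid differentiation by factors such as PU.1, and fibroblasts also carry some Toll-like receptors.

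Dendritic cell summits outnumbered 3T3 summits over the windows, although unevenly from gene to gene. Relative to the sizes of the whole lists, the 104 dendritic cell summits (exact Poisson 95% interval 85.0 to 126) against 49 in 3T3 (36.3 to 64.8) gave a ratio of 2.18 (exact conditional 95% interval 1.54 to 3.12), a log2 ratio of 1.12. By window, the log2 ratio was 2.54 (0.75 to 4.95) at Itgam and Itgax, 1.96 (0.49 to 3.74) at Tlr4, 1.19 (0.35 to 2.08) at Clec7a, 0.48 (-0.74 to 1.75) at Cd14 and 0.15 (-1.10 to 1.41) at Tlr2. The intervals of Cd14 and Tlr2 included 0, and those of neighbours in this order overlapped. Each interval also held the log2 ratio of all windows together. Such overlap does not compare windows directly, and neither the order nor a difference between genes was tested. With only the 39898 highest-scoring summits of each list, the interval of Itgam and Itgax included 0 as well (2.17, -0.10 to 5.42). These intervals cover counting error only and take summits as independent. The windows were chosen with earlier results of these lists known.

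**Figure D1:**
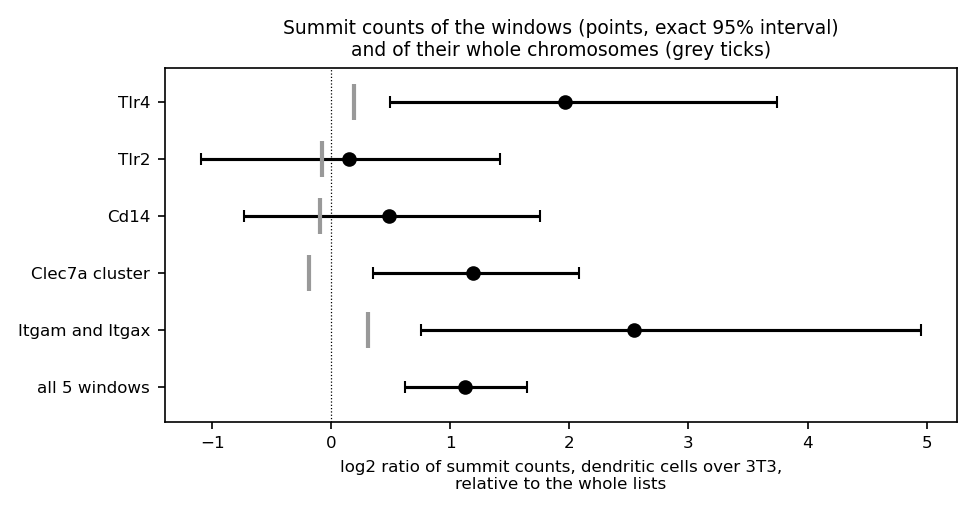
The log2 ratio of summit counts, dendritic cells over 3T3 and relative to the whole lists, is plotted for each window and for all 5 (points with exact 95% intervals), with the same ratio for the whole chromosome as a grey tick. The points of Itgam and Itgax (2.54), Tlr4 (1.96) and Clec7a (1.19) have intervals above 0, and the chromosome ticks lie between -0.19 and 0.31.

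Summits were also sorted by whether they had a counterpart, defined as a summit of the other list within 1000 bp. Over the windows, 77 of 104 dendritic cell summits had none (74.0%, exact Clopper-Pearson 95% interval 64.5 to 82.1), near the 69.4% of the whole dendritic cell list. Of the 3T3 summits, 21 of 49 had none (42.9%, 28.8 to 57.8), against 70.2% of the whole 3T3 list. Taken over all windows, more of the 3T3 summits than of 3T3 summits at large stood near a dendritic cell summit. By window, the 3T3 share without a counterpart was 27.3% (6.02 to 61.0) at Cd14 and 33.3% (13.3 to 59.0) at Clec7a. It was 33.3% (0.840 to 90.6) at the integrins, 58.3% (27.7 to 84.8) at Tlr2 and 80% (28.4 to 99.5) at Tlr4, intervals that include 70.2%. Dendritic cell summits were also dense in the windows, between 9.05 and 18.8 per 100 kb by window. The part of that density in the 3T3 share was not tested.

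The score of a summit, which the list header does not name and which was taken as the height of the signal there, ran higher in these windows than in the dendritic cell list as a whole. The median score was 45.5 in dendritic cells (order-statistic 95% interval 39 to 51), against 36 for the whole dendritic cell list. By window, the interval of the median lay above 36 only at Tlr2 (39 to 102). It included 36 at Tlr4 (28 to 58), Cd14 (34 to 65), Clec7a (32 to 51) and the integrins (29 to 71). In 3T3 the median was 32 (29 to 36), against 33 for the whole 3T3 list. Scores of the lists share no stated scale, so each is read against its own list. At or above the 90th percentile of their list, 79 in dendritic cells and 75 in 3T3, stood 14 of 104 dendritic cell summits (13.5%, 7.56 to 21.6) and 3 of 49 3T3 summits (6.12%, 1.28 to 16.9). The whole lists gave 10.2% for dendritic cells and 10.1% for 3T3, inside both intervals.

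**Figure D2:**
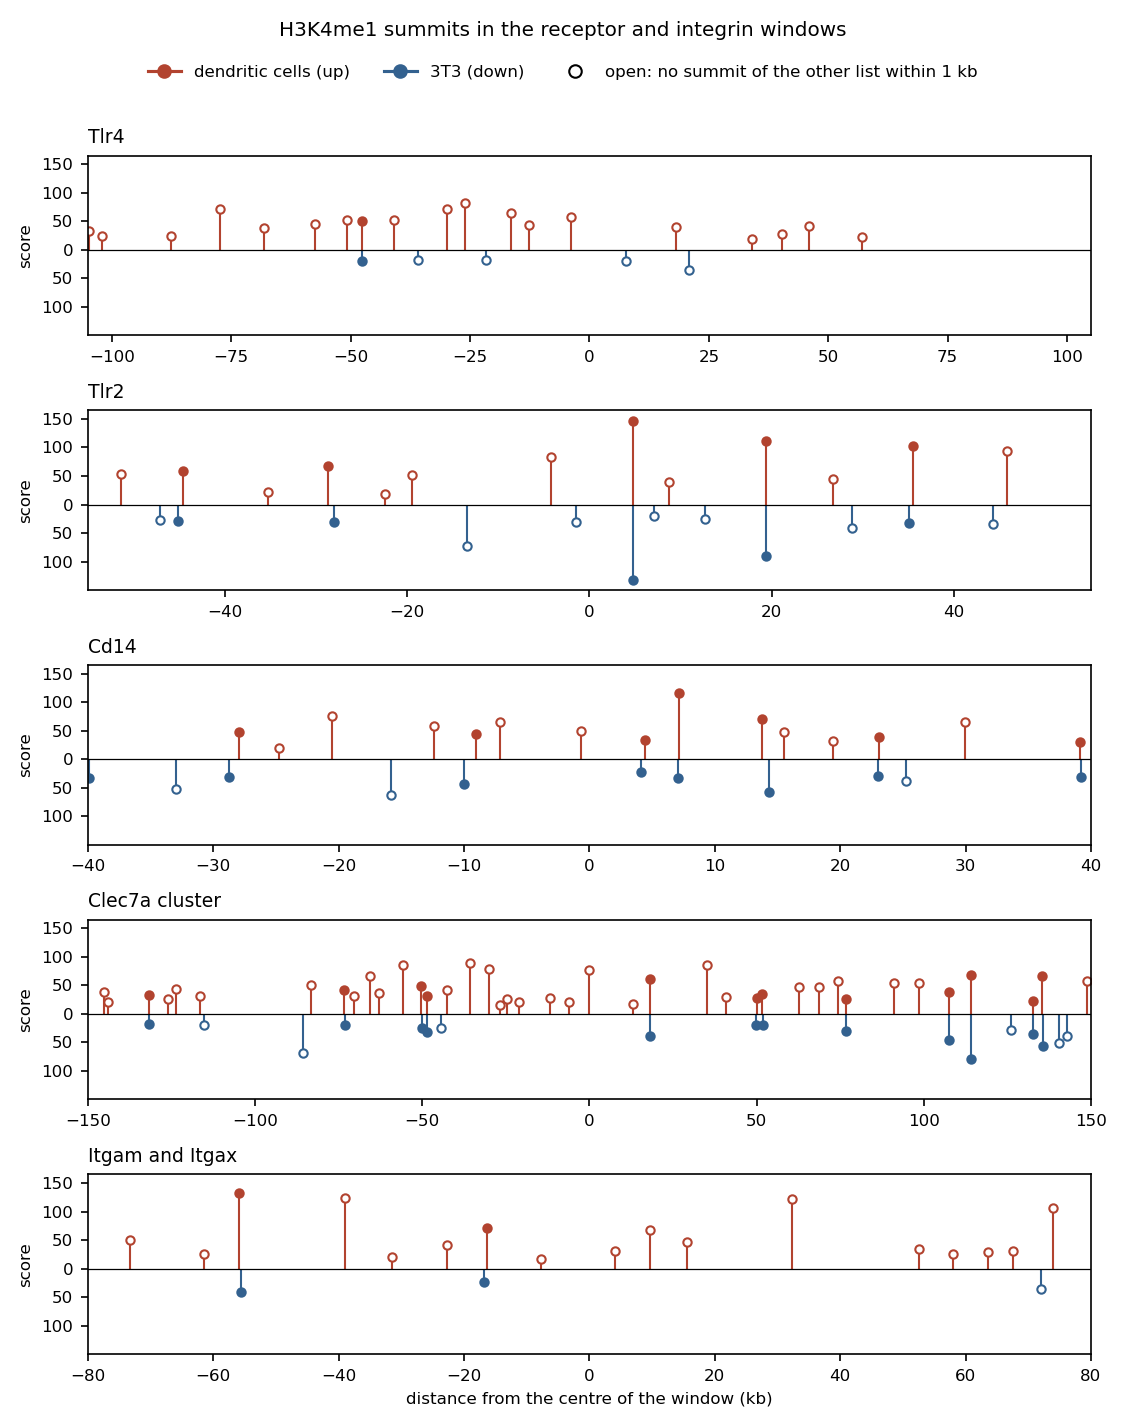
Each stem is an H3K4me1 summit, plotted by its distance in kb from the centre of its window and by its score, with dendritic cells upward and 3T3 downward; open circles have no summit of the other list within 1 kb. The Tlr4 window and that of Itgam and Itgax hold 19 and 17 dendritic cell stems above 5 and 3 stems of 3T3, while at Tlr2 the tallest stems of both cell types coincide.

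Tlr4, the lipopolysaccharide receptor, had dendritic cell summits that almost all lacked a 3T3 counterpart. The window on chromosome 4 from 66430000 to 66640000 (210 kb) held 19 dendritic cell summits (11.4 to 29.7) and, in 3T3, 5 (1.62 to 11.7). No 3T3 counterpart was found for 18 of the 19 (94.7%, 74.0 to 99.9), against 69.4% of the whole dendritic cell list. With 2.38 3T3 summits per 100 kb, few dendritic cell summits could lie within 1000 bp of one. This share therefore follows in part from the low 3T3 count and was not tested apart from it. Dendritic cell scores ran from 19 to 83 with a median of 44, against 18 to 36 with a median of 20 in 3T3. In the 3T3 list 4 of these 5 summits were among the weakest called, with scores of 18, 18, 20 and 20, at most 7.37% of the list being lower. Only the summit at 66555919, with a score of 36, was above the 3T3 median, and it lay 2705 bp from the nearest dendritic cell summit.

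The 3 highest dendritic cell summits of the Tlr4 window lay at 66508990, 66505243 and 66457737, with scores of 83, 72 and 71. The first of these was higher than 91.3% of the dendritic cell list. None was near a 3T3 summit, the distances being 4275, 6122 and 29726 bp. The longest run without a gap above 10 kb comprised 5 dendritic cell summits, from 66505243 to 66531201, with scores of 44 to 83. A single 3T3 summit, scored 18, lay inside that run. The only pair of both lists was at 66487328 in dendritic cells (score 51) and 66487463 in 3T3 (score 20), 135 bp apart. Relative to the median of all 24378 pairs, the dendritic cell score of this pair was 2.34-fold higher.

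The Tlr4 summits stood apart from their surroundings. The nearest dendritic cell summit before the window was 597 kb from the first inside, and the nearest 3T3 summit 639 kb. The 210 kb before the window were empty in both lists, and the 210 kb after it held 3 summits of dendritic cells (0.619 to 8.77) but none of 3T3 (0 to 3.69). The next 3T3 summit came 1641 kb after the last inside. In the RefSeq gene order of GRCm38 the nearest protein-coding neighbours are Trim32 and Brinp1. Of all 210 kb windows that held any summit, which had medians of 7 dendritic cell and 8 3T3 summits, 16.0% held at least as many dendritic cell summits and 64.3% at least as many 3T3 summits. At least 19 dendritic cell and at most 5 3T3 summits together were found in 0.951% of them, with values of 0.538 to 1.54% under the other settings tried. The first 8 dendritic cell summits of the window, the last being that of the shared pair, fell between neighbouring 3T3 summits. That interval was 639127 bp long and began before the window. Of all such intervals 0.975% held 8 or more. The interval with the most dendritic cell summits of the window was picked and length was not matched, which favours a small share.

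**Figure D3:**
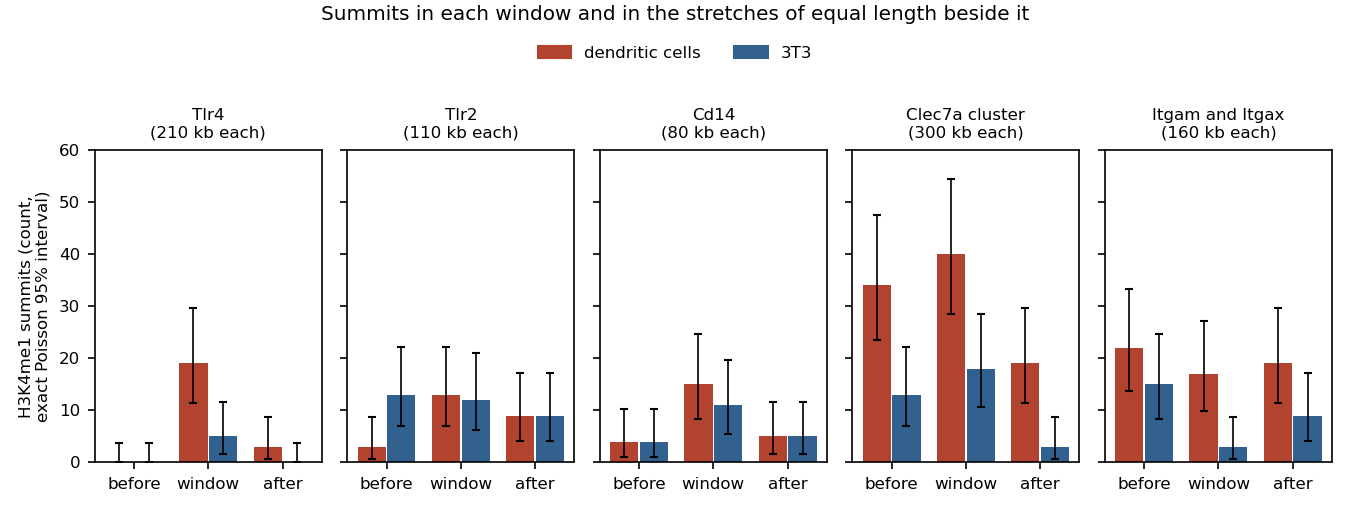
Bars give H3K4me1 summit counts (with exact Poisson 95% intervals) in each window and in the stretches of the same length directly before and after it, dendritic cells left of 3T3. At Tlr4 the counts drop to 0 or 3 outside the window, whereas beside the Itgam and Itgax window the 3T3 counts are 15 and 9, against 3 inside.

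Tlr2, the lipoprotein receptor, had many summits in both cell types. Its window on chromosome 3 from 83590000 to 83700000 (110 kb) held 13 summits of dendritic cells (6.92 to 22.2) and 12 of 3T3 (6.20 to 21.0). Among the highest-scoring summits alone it held 11 of dendritic cells and 5 of 3T3, a log2 ratio of 1.14 (-0.50 to 3.01). No counterpart was found for 8 of the 13 dendritic cell summits (61.5%, 31.6 to 86.1) and 7 of the 12 3T3 summits (58.3%, 27.7 to 84.8), and both intervals include the shares of the whole lists, 69.4% in dendritic cells and 70.2% in 3T3. At least 13 dendritic cell summits stood in 8.98% of all 110 kb windows, at least 12 3T3 summits in 9.90%, and at least 13 of dendritic cells with at most 12 of 3T3 in 6.65%. The last share ran from 0.883% with the highest-scoring summits alone to 15.1% for windows widened by 50 kb on each side.

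The dendritic cell summits of Tlr2 were high within their list. Their median score was 58, and 5 of 13 were at or above the 90th percentile, against 10.2% of the whole dendritic cell list. These 5 scored 147, 112, 102, 94 and 84, and the rest scored 18 to 67. In 3T3 the median was 31.5, with 132, 90 and 72 as the highest scores, of which 132 and 90 passed the 90th percentile of 3T3. The highest summit stood at nearly the same place in both cell types, at 83649724 in dendritic cells (score 147) and at 83649764 in 3T3 (score 132), 40 bp apart. The second highest was also shared, at 83664377 in dendritic cells (112) and at 83664328 in 3T3 (90). Relative to all pairs these differed by 1.02-fold and 1.14-fold.

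At the other Tlr2 pairs the relative dendritic cell score was higher by more. The pair at 83680466 in dendritic cells (score 102) and at 83680025 in 3T3 (score 32), 441 bp apart, had a relative ratio of 2.93. The pairs at 83616333 (67 in dendritic cells, 31 in 3T3) and 83600423 (58 in dendritic cells, 29 in 3T3) had relative ratios of 1.99 and 1.84. The high dendritic cell summit at 83690775 (score 94) had no counterpart within 1000 bp, its nearest 3T3 summit (score 34) being 1522 bp away. Conversely, the high 3T3 summit at 83631606 (score 72) had none, its nearest dendritic cell summit (score 51) being 6017 bp away. In the 110 kb before the window the counts ran the other way, at 3 in dendritic cells (0.619 to 8.77) and 13 in 3T3 (6.92 to 22.2), while the 110 kb after it had 9 in each. In the RefSeq gene order of GRCm38, Sfrp2, which encodes a secreted modulator of Wnt signalling, comes next before Tlr2.

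The start region of Tlr2 is shown because, unlike the other member promoters examined, it holds a match to the NF-kB motif. The sequence covers 250 bases before to 50 after the start (RefSeq, GRCm38.p6, chr3:83841559-83841858, minus strand, printed 5′ to 3′), with the match in capitals.
Tlr2: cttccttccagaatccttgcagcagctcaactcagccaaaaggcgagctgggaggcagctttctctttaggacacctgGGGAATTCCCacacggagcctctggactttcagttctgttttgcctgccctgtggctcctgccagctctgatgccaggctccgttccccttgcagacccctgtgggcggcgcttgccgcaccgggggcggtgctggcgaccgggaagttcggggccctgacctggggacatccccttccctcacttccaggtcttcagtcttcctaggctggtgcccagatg
The capitals mark GGGANTTCC, found on both strands at overlapping positions, which 1.68% of the 32851 promoters of the same length hold. As the summits are placed on mm9 and the promoters on GRCm38, no distance between them is given, and a match is not evidence of binding.

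Cd14, whose product delivers lipopolysaccharide to the TLR4 complex, had the most dendritic cell summits per 100 kb of the 5 windows. It is also the shortest window, and scaled to length its counting interval overlapped those of the others. The window on chromosome 18 from 36840000 to 36920000 (80 kb) held 15 summits of dendritic cells (8.40 to 24.7), or 18.8 per 100 kb, and 11 of 3T3 (5.49 to 19.7), or 13.8 per 100 kb. At least 15 dendritic cell summits were found in 0.278% of all 80 kb windows, and at least 11 3T3 summits in 4.18%. Both conditions of the locus, at least 15 and at most 11, held in 0.231%, which became 2.37% for windows widened by 50 kb on each side and 0.0972% with the highest-scoring summits alone. Counts were lower outside the window in both cell types, at 4 of each list in the 80 kb before it and 5 of each in the 80 kb after it. Slc35a4, Tmco6 and Ndufa2 are among the neighbours of Cd14 in the RefSeq gene order, and without mm9 gene models the summits were not assigned to any of these genes.

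All 15 dendritic cell summits of the Cd14 window followed each other without a gap above 10 kb, over 67076 bp. The run went on past the window, the next dendritic cell summit being 1.76 kb after the last inside. Inside the window, dendritic cells and 3T3 differed in score. The scores of the 15 ran from 20 to 116 with a median of 47, against 22 to 62 with a median of 33 in 3T3. The highest, at 36887147 with a score of 116, was above 97.8% of the dendritic cell list. Its partner in 3T3, 105 bp away at 36887042, scored 33, a relative ratio of 3.23, the largest of all pairs in the 5 windows. The next dendritic cell summits were at 36859426 (score 76), with no counterpart, and at 36893751 (score 70), whose 3T3 partner at 36894327 scored 57.

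The other shared sites of the Cd14 window were closer in score. The relative ratio was 1.42 at 36884391 (34 in dendritic cells, 22 in 3T3), 1.35 at 36852059 (47 in dendritic cells, 32 in 3T3) and 1.24 at 36903114 (39 in dendritic cells, 29 in 3T3). On the log2 scale it was -0.09 at 36870946 (45 in dendritic cells, 44 in 3T3) and -0.17 at 36919135 (30 in dendritic cells, 31 in 3T3). Of the 3 highest 3T3 summits, those at 36864165 (score 62) and 36847060 (score 53) had no dendritic cell counterpart, and that at 36894327 (score 57) had one. Over the window, 8 of 15 dendritic cell summits (53.3%, 26.6 to 78.7) and 3 of 11 3T3 summits (27.3%, 6.02 to 61.0) had none, against 69.4% of the whole dendritic cell list and 70.2% of the whole 3T3 list. Within 250 bp, 80% of the dendritic cell summits and 72.7% of the 3T3 summits had none, against 82.2% and 82.7% of those lists. With the highest-scoring summits alone, 81.8% of the dendritic cell summits had none (48.2 to 97.7), against 77.7% of the dendritic cell list cut the same way. The 4 dendritic cell summits from 36893751 to 36903114, none over 5 kb from the next, formed the largest cluster of the window.

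**Figure D4:**
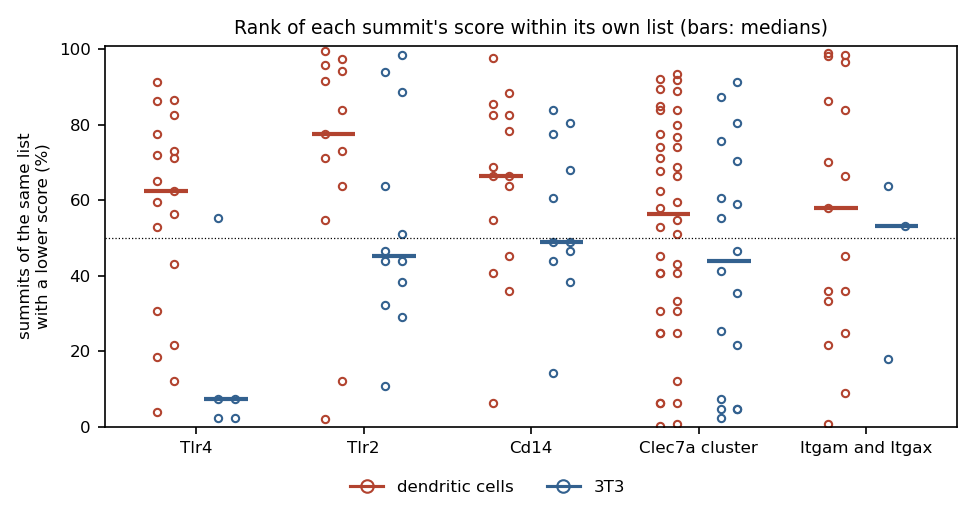
Each circle is a summit, placed by the percentage of summits of its own list with a lower score, with bars at the medians and dendritic cells left of 3T3. The dendritic cell medians lie between 56.3 and 77.6%, and the 3T3 medians between 43.9 and 53.3% except at Tlr4, where it is 7.37%.

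The Clec7a window covers a cluster of C-type lectin genes. In RefSeq order Clec12a, Clec12b, Clec1b, Clec9a (a receptor for dead cells on a subset of dendritic cells) and Clec1a precede Clec7a, and Olr1, the receptor for oxidised LDL, follows it. The 300 kb on chromosome 6 from 129200000 to 129500000 held 40 dendritic cell summits (28.6 to 54.5), the most of the 5 windows, of which it is the longest, and 18 of 3T3 (10.7 to 28.4). At least 40 dendritic cell summits stood in 0.788% of all 300 kb windows, at least 18 3T3 summits in 29.9%, and both at least 40 and at most 18 in 0.105% (0.342% with the highest-scoring summits alone). The dendritic cell marking extended beyond the window, with 34 summits (23.5 to 47.5) in the 300 kb before it, against 13 in 3T3 (6.92 to 22.2), and 19 (11.4 to 29.7) in the 300 kb after it, against 3 in 3T3 (0.619 to 8.77).

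Scores in the Clec7a window were moderate, from 16 to 90 with a median of 40 in dendritic cells and from 18 to 79 with a median of 31 in 3T3. The highest dendritic cell summits, at 129314224, 129294318 and 129385275, scored 90, 86 and 85, and their nearest 3T3 summits were 8644, 5641 and 14670 bp away. No counterpart was found for 28 of the 40 dendritic cell summits (70%, 53.5 to 83.4), against 69.4% of their list, and for 6 of the 18 3T3 summits (33.3%, 13.3 to 59.0), against 70.2% of theirs. The highest 3T3 summits, at 129464083, 129264248 and 129485684, scored 79, 69 and 57. Of these, the first and the last were shared with dendritic cells, while that at 129264248 was 2357 bp from the nearest dendritic cell summit. A run of 16 dendritic cell summits without a gap above 10 kb extended from 129276705 to 129349801 over 73096 bp, and 4 3T3 summits lay within it. Between the 3T3 summits at 129305580 and 129368130, a stretch of 62550 bp, there were 10 dendritic cell summits with scores of 16 to 90. As many or more were found in 0.569% of all intervals between neighbouring 3T3 summits. This interval was picked for holding the most dendritic cell summits of the window, and length was not matched, which favours a small share.

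The shared sites of the Clec7a window split along its length, a division noticed in the values. At 6 of the first 7 pairs along the chromosome, up to 129401689, the relative dendritic cell score was the higher, by 1.35-fold to 1.98-fold, the exception being that at 129301264, at 0.919. At 4 of the 5 pairs after that it was the lower, at 0.796, 0.759, 0.803 and 0.562, the exception being that at 129485500, at 1.08. Summits of 3 pairs in that stretch nearly coincided: those at 129464079 in dendritic cells (score 69) and 129464083 in 3T3 (score 79) were 4 bp apart, those at 129482536 in dendritic cells (22) and 129482530 in 3T3 (36) were 6 bp apart, and those at 129426650 in dendritic cells (26) and 129426642 in 3T3 (30) were 8 bp apart. These were the only 3 of the 104 dendritic cell summits within 10 bp of a 3T3 summit (2.88%), against 1.50% of the whole list.

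The shared window of Itgam and Itgax, the genes of CD11b and CD11c, had the highest ratio of dendritic cell to 3T3 counts of the 5, although its interval overlapped those of the others. On chromosome 7 from 135170000 to 135330000 (160 kb) dendritic cells had 17 summits (9.90 to 27.2) and 3T3 cells had 3 (0.619 to 8.77). As many dendritic cell summits or more were found in 10.6% of all 160 kb windows, and as many 3T3 summits or more in 71.5%. At least 17 with at most 3 were found together in 0.492%, which became 2.51% with the highest-scoring summits alone, 1.04% for windows narrowed by 20 kb on each side and 0.259% for windows widened by 50 kb. The 160 kb stretches beside the window held 22 and 19 dendritic cell summits, but 15 (8.40 to 24.7) and 9 (4.12 to 17.1) 3T3 summits. Because the genes neighbour each other and no mm9 gene models were used, the summits were not divided between them.

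Several of the integrin summits were among the strongest of the dendritic cell list. The 3 highest, at 135194149, 135210956 and 135282364, scored 133, 124 and 122, above 99.0, 98.5 and 98.3% of the list, and a further one at 135323955 scored 107. The rest ranged from 17 to 71, and the median over all 17 was 41. In 3T3 the scores were 41, 35 and 23, below the 90th percentile in each case. The summits at 135210956 and 135282364 were 16600 and 39716 bp from the nearest 3T3 summit. Between 135233097 and 135322080, over 88983 bp, no 3T3 summit was called while 10 dendritic cell summits were, with scores of 17 to 122. As many or more were found in 0.569% of all such intervals. Here too the interval with the most dendritic cell summits was picked and length was not matched, which favours a small share.

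At 2 integrin sites summits were called in both cell types, each with the higher relative score in dendritic cells. At 135194149 the dendritic cell score of 133 stood against a 3T3 score of 41 at 135194356, a relative ratio of 2.98. At 135233593 the dendritic cell score of 71 stood against a 3T3 score of 23 at 135233097, a relative ratio of 2.84. The remaining 3T3 summit, at 135322080 with a score of 35, was 1875 bp from the dendritic cell summit of score 107. Without a counterpart were 15 of the 17 dendritic cell summits (88.2%, 63.6 to 98.5), an interval that includes the 69.4% of the whole list.

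The start regions of both integrin genes are shown because this locus had the highest count ratio (RefSeq, GRCm38.p6, Itgam at chr7:128062390-128062689 and Itgax at chr7:128129300-128129599, both plus strand, printed 5′ to 3′, 250 bases before to 50 after the start).
Itgam: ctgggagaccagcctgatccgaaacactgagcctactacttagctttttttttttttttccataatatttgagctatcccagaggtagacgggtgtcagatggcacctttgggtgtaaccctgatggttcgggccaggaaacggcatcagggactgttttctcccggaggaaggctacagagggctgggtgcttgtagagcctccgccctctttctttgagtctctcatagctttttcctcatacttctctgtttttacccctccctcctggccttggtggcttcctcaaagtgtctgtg
Itgax: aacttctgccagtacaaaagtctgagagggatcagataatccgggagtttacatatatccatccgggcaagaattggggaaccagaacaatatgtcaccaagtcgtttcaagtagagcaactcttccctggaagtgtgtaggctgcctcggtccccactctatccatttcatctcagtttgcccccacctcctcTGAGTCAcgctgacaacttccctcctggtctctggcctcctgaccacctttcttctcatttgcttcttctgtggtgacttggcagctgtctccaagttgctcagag
The capitals in Itgax mark the AP-1 motif TGANTCA, which reads the same on both strands and which 7.81% of all promoters in the table hold. Itgam held no match. The other motifs searched on both strands were PU.1 (GAGGAAGT, in 3.20% of promoters), C/EBP (TTGCNNAA, 10.8%), NF-kB (GGGANTTCC) and an IRF element of 2 GAAA boxes with 2 bases between them (3.44%). Neither integrin start region holds any of these, and that of Clec7a holds none of the 5 motifs searched. Of the 6 genes, 4 had their start regions searched here, those of Tlr4 and Cd14 not being used. No match says only that these letters are not in this window.

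Across the windows, scores at shared sites leaned towards dendritic cells. The 27 pairs had a median relative log2 ratio of 0.44 (order-statistic 95% interval 0.03 to 0.88), and the dendritic cell score was relatively higher at 20 of 27, against 12185 of all 24378 pairs, whose median sets the zero. A dendritic cell excess of 2-fold or more was found at 5 of the 27 (18.5%, 6.30 to 38.1), against 11.6% of all pairs. A 3T3 excess of that size was found at 0 of 27 (exact upper limit 12.8%), against 11.9% of all pairs, which lies within that limit. The 5 were the pair of Tlr4, the pair at 83680466 of Tlr2, the highest of Cd14 and both of the integrins. Every Tlr2 pair was above the median of all pairs, though that at 83649724 by 0.03 only on the log2 scale. The interval of the median included 0 under 3 of the 4 other settings tried, among them the highest-scoring summits alone (0.14, -0.29 to 0.59).

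**Figure D5:**
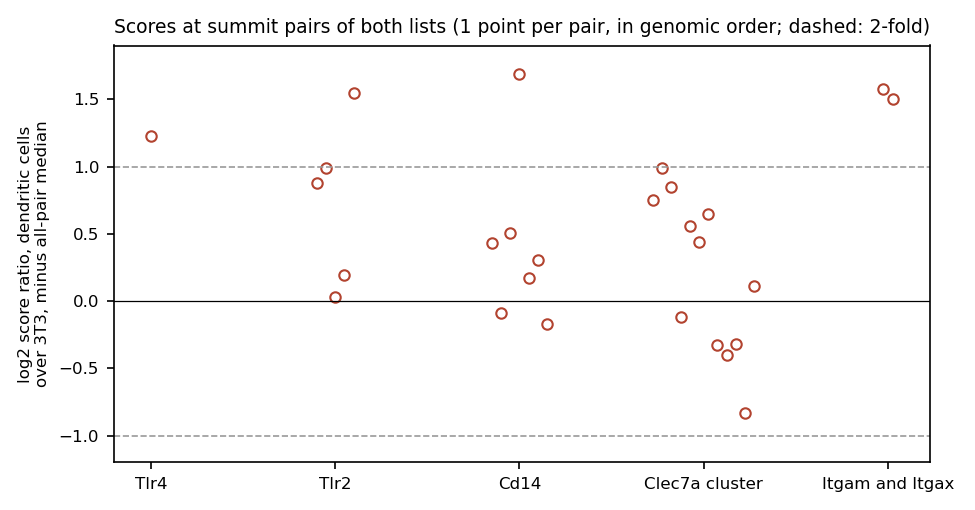
Each circle is a pair of mutually nearest summits within 1000 bp, in genomic order within its window, placed by the log2 ratio of dendritic cell to 3T3 score minus the median of all pairs. Circles lie between -0.83 and 1.69, those of Tlr4, Tlr2 and the integrins are all above 0, and in the Clec7a window 1 of the first 7 and 4 of the last 5 lie below 0, the final one being at 0.11.

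The whole chromosomes that carry the windows also differed between the lists. Chromosomes 4 and 7 carried relatively more dendritic cell summits than the whole lists, with log2 ratios of 0.19 and 0.31, while chromosomes 3, 18 and 6 carried fewer, with -0.07, -0.09 and -0.19. Measured against its own chromosome, the log2 ratio was 2.23 (0.44 to 4.64) at Itgam and Itgax, 1.77 (0.30 to 3.55) at Tlr4 and 1.38 (0.54 to 2.27) at Clec7a, and with intervals that included 0 it was 0.58 (-0.64 to 1.85) at Cd14 and 0.23 (-1.02 to 1.49) at Tlr2. In clusters of at least 2 with gaps of up to 5 kb lay 46 of the 104 dendritic cell summits (44.2%), against 49.0% of the list. With gaps of up to 2 kb, 10 (9.62%) did, against 7.68% of the list, and with gaps of up to 10 kb, 96 (92.3%) did, against 79.3%. The share in the windows was thus below that of the list at 5 kb and above it at 2 and 10 kb. Clusters of the windows were cut at the window edges and those of the list were not, which can lower the share in the windows. Clusters at 5 kb held at most 4 dendritic cell summits, once at Cd14 and at 2 places in the Clec7a window.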

How the data were processed

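H3K4me1 chromatin immunoprecipitation was done on formaldehyde-fixed nuclei, and the DNA, re-sonicated to about 300 bp, went through 18 PCR cycles and gave 36 bp single-end reads, per the labels' protocols. The submitters' processing notes name Bowtie, MACS 1.4 and the mm9 build. Calling used a p threshold of 0.0001 without model or local lambda and with reads shifted by 150 bp, per the file headers. No source used here says whether input DNA served as control. The authors deposited 1 bp summits with an unnamed score, read here as a signal (pileup height at the summit), a whole number of at least 13 in both lists. Since the number of reads is unknown, a place with no summit is one where nothing was called. The other deposited values, positions, are given 1-based on mm9.

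Windows and gene list were chosen with earlier results of these data known. Per window, summits were counted (exact Poisson 95% intervals), matched to the other list (counterpart within 1000 bp, pairs mutually nearest) and set against overlapping windows of equal length across the genome that held any summit. Count ratios carry exact conditional intervals, shares exact Clopper-Pearson ones. Named were the 3 highest summits of each list per window (all where fewer), every pair and the largest cluster. Intervals between 3T3 summits, runs with gaps up to 10 kb, 10 bp matches and the Clec7a division were chosen after values were seen, as were further summits named. Of the intervals in a window, the one with the most dendritic cell summits was taken. Alternatives changed the counterpart distance, cluster gap, window width, merging of summits and the number of summits kept. The functions were tested on simulated lists. Other pathway genes were not placed, since the RefSeq gene table is on GRCm38. Promoter sequences were matched by symbol, and those of Tlr4 and Cd14 were not used here. Python 3.11.15, numpy 2.4.6, scipy 1.17.1 and matplotlib 3.10.9 were used.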

Additional observations from a re-analysis of the deposited data

How the results depend on the processing

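Each cell type is 1 library, so no replicate could be left out. No paired analysis was possible because the labels give no replicates. With only the 39898 highest-scoring summits of each list, the windows kept 67 dendritic cell and 21 3T3 summits, and the log2 count ratio was 1.67. The dendritic cell share without a counterpart was 86.6% (76.0 to 93.7), an interval that includes the 77.7% of the dendritic cell list cut the same way. The median scores were 58 in dendritic cells and 46 in 3T3, and 15 dendritic cell summits lay in clusters of 2 or more. Dropping low scores by itself raises medians and thins clusters. In that setting the interval of the Itgam and Itgax log2 ratio, 2.17, reached -0.10. Within 250 bp, 83.7% of dendritic cell and 65.3% of 3T3 summits had no counterpart, against 82.2 and 82.7% of the whole lists. Windows widened by 50 kb on each side held 138 dendritic cell and 79 3T3 summits, with a lower log2 count ratio of 0.84 (0.43 to 1.26). In these widened windows the Tlr2 log2 ratio was -0.42 (-1.35 to 0.49). Windows narrowed by 20 kb on each side gave a log2 count ratio of 1.30 (0.69 to 1.93). Counted inside the windows only, cluster gaps of 10 kb gave 96 dendritic cell summits in clusters and a largest of 16, and gaps of 2 kb gave 10 and 2. The median relative pair score stayed above 0 under each of the 4 alternatives tried (0.14 to 0.59), but its interval included 0 in 3 of them. Over all windows together, the share of 3T3 summits without a counterpart stayed below that of the whole list. Among the highest-scoring summits its interval (34.0 to 78.2%) included the 77.7% of the list. Of 195 values for single loci, 35 moved outside their 95% interval or, for counts, by over 1.5 times. The log2 ratios under alternatives were added after seeing the data.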

Other observations

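The only 3T3 cluster of 4 summits in the windows, with gaps of up to 5 kb, lay at the end of the Clec7a window from 129482530 to 129492819, with scores of 36 to 57. The highest 3T3 summit of all windows without a dendritic cell summit within 1000 bp was at 83631606 in the Tlr2 window, with a score of 72, above 88.7% of the 3T3 list and 6017 bp from the nearest dendritic cell summit.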
